A study of Mus musculus with 6 samples.

Results

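The genes described here encode the subunits of the glutamate and GABA receptors of the mouse brain. They were chosen by gene symbol alone, as every row of the count table named Gria, Grin, Grik, Grid or Grm for glutamate receptors, or Gabra, Gabrb, Gabrg, Gabrd or Gabbr for GABA receptors. Gabra6 was set apart and used only as a marker of cerebellar granule cells. The rule found 40 genes among 31276 gene symbols, of which 26 encode glutamate receptors and 14 GABA receptors, and 39 had enough counts to be tested. The study sequenced mRNA of the brain at postnatal day 14 (P14), from total RNA, in 6 libraries. The knockout (KO) libraries came from 3 C57BL/6 samples labelled as a PRMT5 knockout made with olig2cre, and the wild-type (WT) libraries from 3 C57BL/6 samples of the same age. The labels name no treatment for either group. PRMT5 is an arginine methyltransferase, and Olig2 drives Cre in oligodendrocyte precursors, their progeny and some other neural progenitors. Most forebrain and cerebellar neurons, in which these receptors are mainly found, arise from progenitors outside that lineage. Nothing in the labels says that the samples of a group were separate animals, so p-values measure only the spread between these samples.

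Fast excitation in the brain runs through glutamate-gated channels of the AMPA, NMDA and kainate families, and fast inhibition through GABA-A channels assembled from alpha, beta and gamma or delta subunits. Metabotropic glutamate receptors and the GABA-B receptor act more slowly through G proteins. Around the end of the second postnatal week these families are still being remodelled, as when the GluN2A subunit gains on GluN2B. Oligodendrocyte precursors also carry AMPA, NMDA and GABA-A receptors and receive synapses from neurons.

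The libraries held 15089140 to 16872925 counts, and the receptor subunits took 0.496 to 0.548% of them. Prmt5 had 68.2, 68.4 and 81.6 CPM (counts scaled to TMM-normalized library sizes) in KO brains, against 90.8, 90.4 and 91.8 CPM in WT brains. KO was lower in every library without passing the test across all genes (log2 fold change -0.32, edgeR adjusted p = 0.232), and with replicate number as a block in the fit the adjusted p was 0.0379. Mbp, a main protein of myelin, fell to 632.4, 964.2 and 469.5 CPM in KO brains, against 5631.8, 4075.5 and 4094.9 CPM in WT brains (log2 fold change -2.74, edgeR adjusted p = 0.000201). Pdgfra, the defining receptor of oligodendrocyte precursors, fell to 56.0, 49.7 and 50.5 CPM in KO brains, against 90.6, 89.1 and 92.7 CPM in WT brains (log2 fold change -0.80, edgeR adjusted p = 0.000996). No marker of the neuronal and glial lists used here was at 0 in all libraries. The libraries differed in a way the groups do not explain: Gabra6 stood at 80.0, 0 and 22.1 CPM in KO replicates 1, 2 and 3, against 63.8, 0 and 0 CPM in WT replicates 1, 2 and 3. Summed CPM of the 6 cerebellar granule cell markers, Gabra6 among them, was 568.7, 49.3 and 205.9 in KO brains and 519.3, 53.0 and 49.9 in WT brains, so that KO replicates 1 and 3 and WT replicate 1 carried the cerebellar signal. The female transcript Xist also differed within groups, at 634.0, 603.3 and 0.254 CPM in KO brains and 0.25, 509.1 and 0.241 CPM in WT brains.

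Levels of different genes were compared per kilobase of exon, as CPM per kb averaged over the 6 libraries. Gabbr1, the ligand-binding subunit of the GABA-B receptor, had the highest level at 91.7 CPM per kb. The AMPA subunit gene Gria1 followed with 64.5 CPM per kb and the obligatory NMDA subunit gene Grin1 with 58.8 CPM per kb. The kainate subunit gene Grik5 at 41.5 and the GABA-A subunit gene Gabrb2 at 40.5 CPM per kb were also among the highest. A total of 23 of the 40 genes exceeded 10 CPM per kb and 7 lay under 1 CPM per kb. The order was mostly not sharp: in 33 of 38 pairs of neighbours the ranges over the 6 libraries overlapped. The ranges of neighbours were separate between Gabbr1 and Gria1, Grm7 and Grid1, and Grik4 and Grm8, among others. Grm6, the metabotropic receptor of retinal ON bipolar cells, had 2 counts in WT replicate 1 and 0 in the other libraries, where a count of 0 allows up to 0.181 to 0.203 CPM; counting error alone is covered by this limit. Grm6 was therefore not tested.

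**Figure D1:**
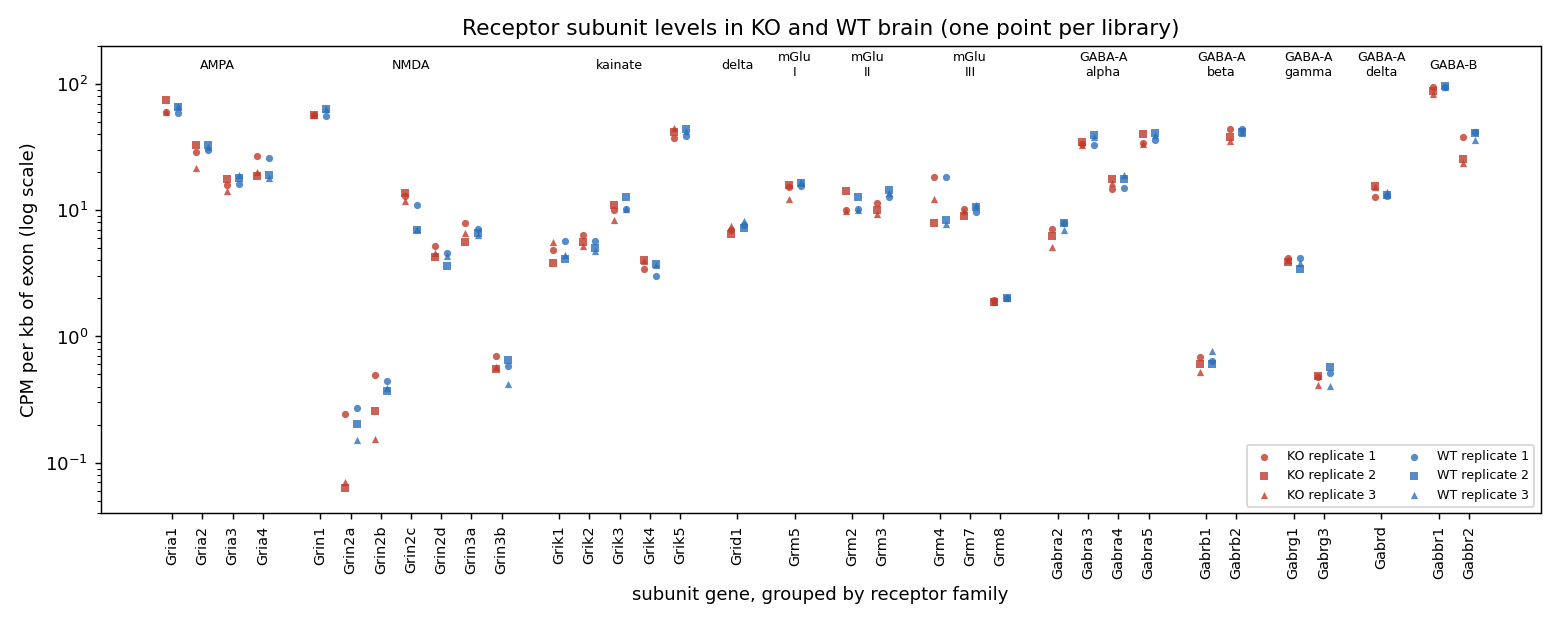
Levels of 34 of the 39 tested subunit genes in CPM per kb of exon on a log axis, grouped by receptor family, with one point for each library (KO left and WT right of each gene's position; circles, squares and triangles are replicates 1, 2 and 3). Within most genes the KO and WT points overlap, while the genes span from 0.167 CPM per kb for Grin2a to 91.7 CPM per kb for Gabbr1.

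The lowest levels need care. Grin2a averaged 0.167 and Grin2b 0.352 CPM per kb, far under the 58.8 CPM per kb of Grin1, the partner with which their products assemble. Grin2a had 72, 18 and 20 counts in KO brains and 78, 54 and 45 counts in WT brains. Grin2b had 202, 102 and 60 counts in KO brains and 178, 136 and 161 counts in WT brains. The exon lengths were those of GENCODE M21, 17.9 kb for Grin2a and 24.8 kb for Grin2b with their long untranslated regions, and which part of them the authors' gene models counted is not given in the sources used here. Whether counting left out reads of these genes was not tested, and their values are given as deposited.

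Whether receptor genes differ in brains whose oligodendrocyte lineage lacks PRMT5 is the comparison the 2 groups allow. None of the 39 tested subunits passed edgeR's quasi-likelihood test at an adjusted p under 0.05, where 1.2% of all 16592 tested genes did. At an unadjusted p under 0.05 there were 4, Grin2c on the positive side and Grm3, Gabbr2 and Gabra2 on the negative side, out of 39, against 9.67% of all genes. With DESeq2 1 subunit passed, Grin2c, where 1.89% of all genes did. With replicate number as a block 3 passed, Grin2c, Grm3 and Gabbr2, where 3.41% of all genes did, and the same 3 passed with block and exon-length offsets, where 2.79% did. With block and a term for Gabra6 above 5 CPM, Grin2c and Gabbr2 passed, where 3.22% of all genes did. The KO and WT ranges were separate for 4 of the 39, with Grin2c above and Grm3 and Grm8 among those below, where 16% of all genes had separate ranges. As shares of the 39, these counts were 10.3% at the unadjusted limit and 2.56% with DESeq2, close to the shares among all genes. In the block fits the shares were above those among all genes, at 7.69% with the block alone. The 4 with separate ranges were 10.3% of the 39, under the 16% of all genes.

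Most of the subunits lay close to equal in KO and WT. The log2 fold change was within 0.25 of 0 for 33 of the 39. The 95% interval lay within 0.5 of 0 for 27 and within 1 of 0 for 36 of them. The median log2 fold change was -0.10, against 0.01 over all tested genes, with 27 subunits on the negative and 12 on the positive side, while 47.7% of all tested genes were negative. The median deviation of the subunits from their mean over the libraries (log2 scale) was 0.04, -0.06 and -0.10 in KO replicates 1, 2 and 3, and 0.05, 0.07 and 0.04 in WT replicates 1, 2 and 3. Values below 0 were thus in KO replicates 2 and 3, and without KO replicate 3 the median log2 fold change was -0.06. The subunit genes have long exons, with a median of 6.69 kb against 4.40 kb over all genes with a length. Across genes, the Spearman correlation of exon length with the log2 fold change was -0.28, a description, since genes are not independent. Taken per library, as deviations from the mean over all libraries, it was 0.193, -0.137 and -0.412 in KO replicates 1, 2 and 3, and 0.223, 0.107 and 0.109 in WT replicates 1, 2 and 3. The value was positive in KO replicate 1 and all WT libraries, and negative in KO replicates 2 and 3. With offsets for exon length the median of the subunits was -0.02, with 23 negative and 16 positive.

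**Figure D2:**
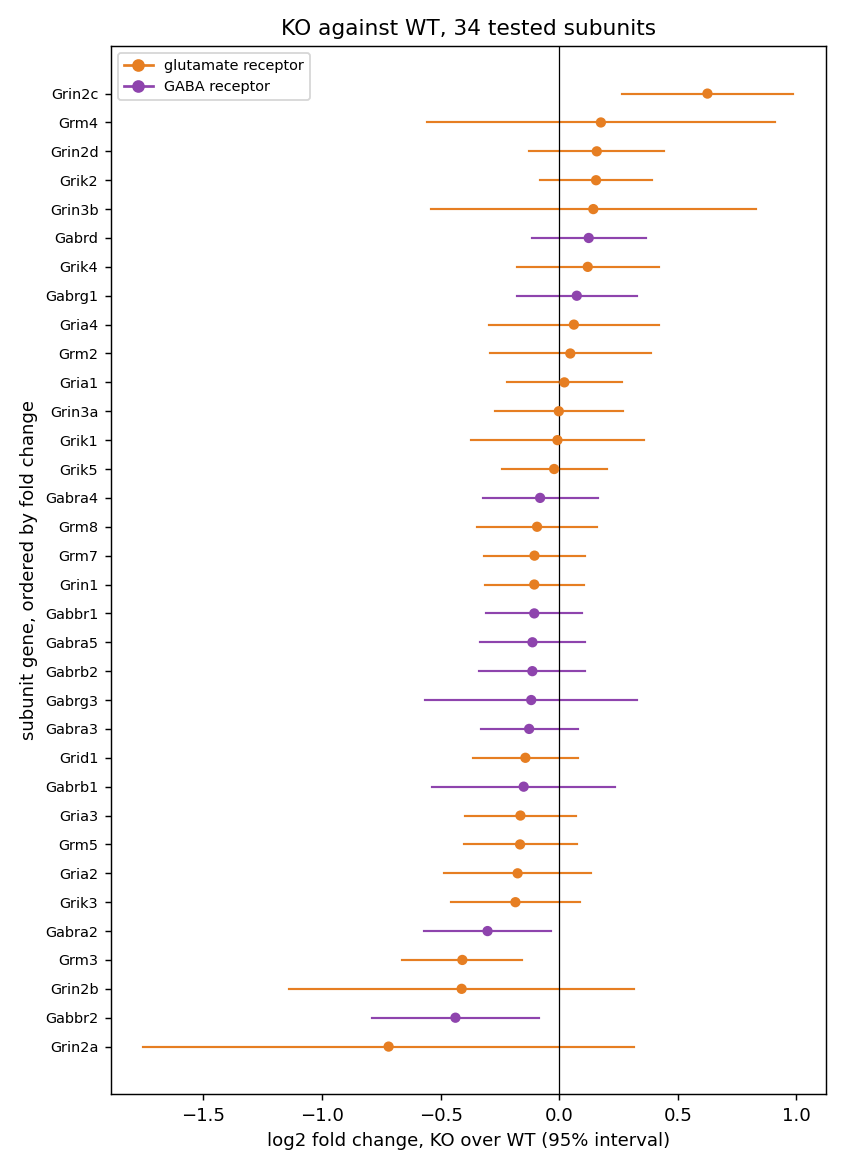
Log2 fold change of KO over WT for 34 of the 39 tested subunits, ordered by size, with 95% intervals; orange marks glutamate and purple GABA receptor genes. Most points lie within 0.25 of 0, Grin2c stands apart on the positive side at 0.63, and the lowest value, -0.72 for Grin2a, has a wide interval from -1.75 to 0.31.

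The 3 subunits that passed with the block are shown with their promoters, so that the genes behind the values can be seen as sequence. Each run holds 250 bases before and 50 bases after a RefSeq transcription start (GRCm38.p6, gene strand, 5′ to 3′), and capitals mark GGGCGG on either strand, the core of the GC box bound by Sp1. The windows are chr11:115267194-115267493 for Grin2c, chr5:9725303-9725602 for Grm3 and chr4:46991665-46991964 for Gabbr2, all on the minus strand.
Grin2c: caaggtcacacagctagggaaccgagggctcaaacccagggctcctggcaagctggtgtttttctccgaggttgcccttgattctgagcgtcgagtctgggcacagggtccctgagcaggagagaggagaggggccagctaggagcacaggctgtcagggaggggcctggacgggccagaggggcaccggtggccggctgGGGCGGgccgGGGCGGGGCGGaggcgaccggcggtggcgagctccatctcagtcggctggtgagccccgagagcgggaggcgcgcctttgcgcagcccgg
Grm3: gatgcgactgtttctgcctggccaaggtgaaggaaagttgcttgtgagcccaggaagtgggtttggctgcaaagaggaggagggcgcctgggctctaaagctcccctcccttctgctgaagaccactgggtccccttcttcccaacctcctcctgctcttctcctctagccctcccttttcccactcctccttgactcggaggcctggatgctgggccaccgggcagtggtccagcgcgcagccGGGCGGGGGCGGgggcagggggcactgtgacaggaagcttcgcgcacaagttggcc
Gabbr2: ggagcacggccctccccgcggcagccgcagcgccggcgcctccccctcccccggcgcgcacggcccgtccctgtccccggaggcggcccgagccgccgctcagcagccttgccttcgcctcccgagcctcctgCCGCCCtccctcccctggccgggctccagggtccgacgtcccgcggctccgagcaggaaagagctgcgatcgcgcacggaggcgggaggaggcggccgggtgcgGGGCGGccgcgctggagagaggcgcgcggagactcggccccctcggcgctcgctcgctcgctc
GGGCGG occurred 3 times in the Grin2c window, where 2 of the copies share a base, and 2 times in each of the others. Of 32851 mouse promoters of this length, 35.7% held the motif, and so did 16 of the 32 promoter windows found for 25 of the subunit genes. The E-box CAGCTG, searched on both strands, was in none of the 3 windows and in 0 of the 32, against 16.3% of all promoters. These are letters in a window, and nothing on binding follows from them.

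Grin2c encodes GluN2C, the NMDA subunit of cerebellar granule cells, thalamus and astrocytes, which gives receptors with weak magnesium block. It lies on mouse chromosome 11 from 115249169 to 115267243 (mm10). Grin2c had 65.7, 69.4 and 59.3 CPM in KO replicates 1, 2 and 3, against 55.4, 34.9 and 35.7 CPM in WT replicates 1, 2 and 3. All 3 KO libraries were above all 3 WT libraries, and WT replicate 1, the WT library with Gabra6, came nearest to them. The means were 64.8 ± 5.11 CPM in KO and 42.0 ± 11.6 CPM in WT (SD, n = 3 each), a log2 fold change of 0.63 (SE 0.164, 95% interval 0.26 to 0.99, edgeR adjusted p = 0.151). The adjusted p was 0.0136 with DESeq2, 0.0385 in edgeR without a filter on low counts, where 1.14% of all genes passed, and 0.00149 with the replicate block. Without WT replicate 1 the log2 fold change of Grin2c was 0.88 (edgeR adjusted p = 0.00543), in a fit where 0.75% of genes passed. Grin2c passed in no other fit that left out a library. Over all such fits its log2 fold change ran from 0.50 to 0.88, with edgeR adjusted p-values of 0.00543 to 0.584.

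Granule cells are known to express Grin2c. In the fit with a term for Gabra6, that term was 0.24 for Grin2c on the log2 scale (SE 0.149, edgeR adjusted p = 0.738), and the KO over WT log2 fold change was 0.57 (edgeR adjusted p = 0.118). Within the libraries that had Gabra6, Grin2c stood at 65.7 and 59.3 CPM in KO and 55.4 CPM in WT. Within those without Gabra6 it stood at 69.4 CPM in KO replicate 2 and 34.9 and 35.7 CPM in WT. The log2 fold change was 0.17 with Gabra6 and 0.97 without, given with no test since each subset has 1 library in a group. The difference between them, with minus without Gabra6, was -0.80 as an interaction term fitted to all 6 libraries. That fit also rests on 1 library in a group, WT replicate 1 with Gabra6 and KO replicate 2 without. It therefore cannot decide whether the difference exceeds the spread between libraries, and no p-value is given. The 6 astrocyte markers summed to 4276.7, 3859.6 and 3524.6 CPM in KO brains and 4282.7, 4109.9 and 4171.1 CPM in WT brains, and 0 of the 6 passed in edgeR.

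Grm3 encodes mGlu3, a group II metabotropic receptor found on neurons and, in quantity, on astrocytes. It lies on mouse chromosome 5 from 9485541 to 9725170 (mm10). Grm3 had 34.9, 30.4 and 28.3 CPM in KO brains, against 38.7, 44.1 and 41.5 CPM in WT brains. All KO libraries were below all WT libraries, and the 2 groups were close at KO replicate 1 and WT replicate 1. The means were 31.2 ± 3.38 CPM in KO and 41.4 ± 2.73 CPM in WT (SD, n = 3 each), a log2 fold change of -0.41 (SE 0.115, 95% interval -0.66 to -0.16, edgeR adjusted p = 0.201). The block gave an adjusted p of 0.0430 and DESeq2 one of 0.111. In the bulk tissue, fewer cells of a type and less RNA per cell cannot be told apart. The 6 markers of oligodendrocyte precursors summed to 226.4, 217.6 and 222.3 CPM in KO brains and 562.5, 522.2 and 523.0 CPM in WT brains. Of them 3 were lower in the test, and all 6 had a negative log2 fold change. Gpr17 had the largest difference in CPM among them. It alone had 51.9, 65.8 and 63.3 CPM in KO brains, against 298.4, 271.0 and 285.5 CPM in WT brains. Of the 6 astrocyte markers, whose sums are given above, 4 had a negative and 2 a positive log2 fold change. All 6 markers of forebrain excitatory neurons had a negative one, and 0 of them passed in edgeR. The part of any of these 3 marker lists in the Grm3 values was not tested.

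Gabbr2 encodes the GABA-B subunit that couples to G proteins, and Gabbr1 the subunit that binds GABA, and both are needed for a working receptor. Gabbr2 lies on mouse chromosome 4 from 46662305 to 46991873 (mm10). Gabbr2 had 252.4, 170.7 and 157.7 CPM in KO brains, against 276.3, 271.0 and 239.2 CPM in WT brains. KO replicates 2 and 3 were low, while KO replicate 1 lay inside the WT range. The means were 193.6 ± 51.3 CPM in KO and 262.2 ± 20.1 CPM in WT (SD, n = 3 each), a log2 fold change of -0.44 (SE 0.159, 95% interval -0.79 to -0.09, edgeR adjusted p = 0.379). The block gave an adjusted p of 0.00708 and DESeq2 one of 0.140. Without KO replicate 1 the log2 fold change was -0.68 (edgeR adjusted p = 0.0110), in a fit where 1.81% of genes passed. Gabbr2 passed in no other fit that left out a library. Over all such fits its log2 fold change ran from -0.68 to -0.31, with edgeR adjusted p-values of 0.0110 to 0.733. Gabbr1 had 730.3, 679.8 and 647.5 CPM in KO brains, against 728.4, 745.3 and 738.9 CPM in WT brains. KO replicate 1 lay within the WT range and the other KO libraries under it, with a log2 fold change of -0.10 (edgeR adjusted p = 0.755).

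**Figure D3:**
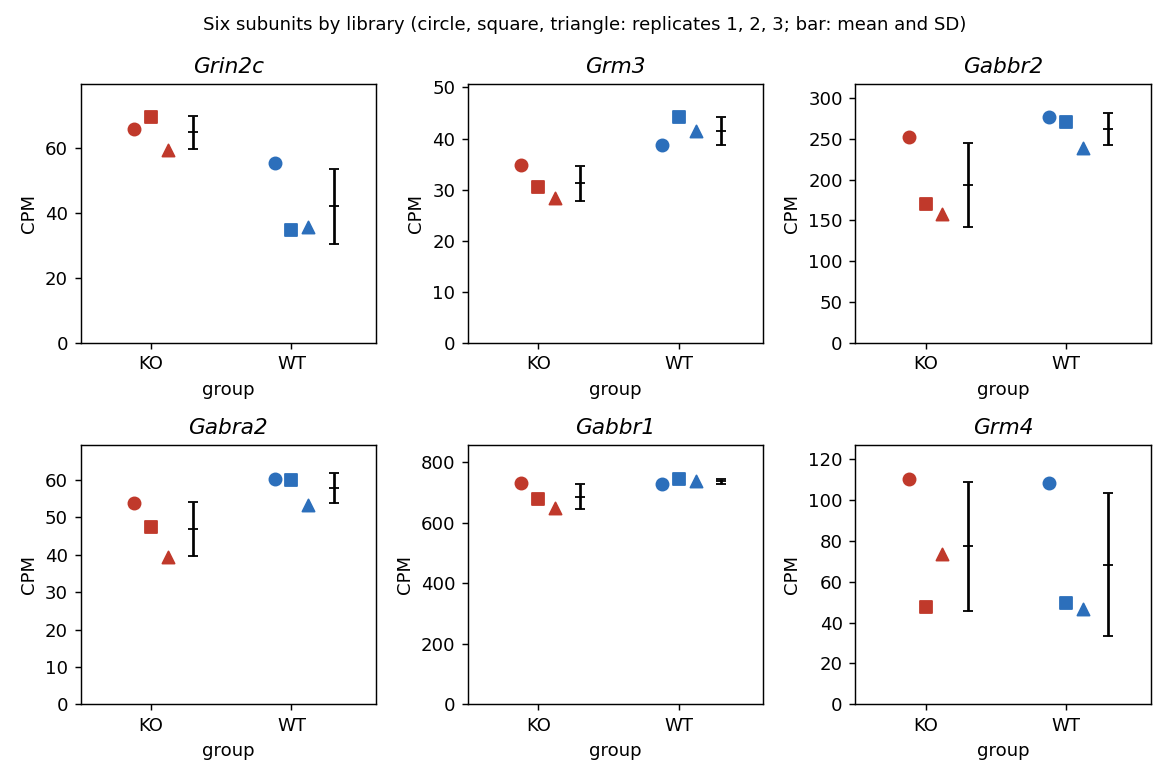
CPM of Grin2c, Grm3, Gabbr2, Gabra2, Gabbr1 and Grm4 in each library, KO left and WT right, each axis starting at 0; circles, squares and triangles are replicates 1, 2 and 3, and bars give mean and SD (n = 3 each). Grin2c is higher and Grm3 lower in all KO libraries, whereas in Grm4 replicate 1 is high in both groups.

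The AMPA family has 4 members, of which GluA2, the product of Gria2, makes the channel impermeable to calcium. Gria1 had 364.5, 450.2 and 363.3 CPM in KO brains, against 357.6, 396.8 and 405.7 CPM in WT brains. These ranges overlapped, and the log2 fold change was 0.02 (edgeR adjusted p = 0.962). Gria3 had 154.9, 173.1 and 139.7 CPM in KO brains, against 158.5, 177.8 and 187.4 CPM in WT brains (log2 fold change -0.16, edgeR adjusted p = 0.657). Only KO replicate 2 was within the WT range. Gria2 and Gria4 had log2 fold changes of -0.17 and 0.06, with no call. In Gria2 the value of KO replicate 3, 334.2 CPM, was the lowest of all libraries, while the others lay between 452.1 and 513.8 CPM.

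In the NMDA family Grin1, needed in every NMDA receptor, had 555.1, 546.0 and 546.9 CPM in KO brains, against 537.4, 615.5 and 619.2 CPM in WT brains. WT replicate 1 was below all KO libraries and the other WT libraries above them, with a log2 fold change of -0.10 (edgeR adjusted p = 0.765). The antisense gene Grin1os shares 13.5% of the exon bases of Grin1, and without a stated strand setting reads of the 2 cannot be told apart. Grin2a, for GluN2A, had 4.38, 1.13 and 1.27 CPM in KO brains, against 4.87, 3.65 and 2.71 CPM in WT brains (log2 fold change -0.72, SE 0.469, edgeR adjusted p = 0.657). KO replicates 2 and 3 were under every WT library, at the low counts given above. Without KO replicate 1 the log2 fold change of Grin2a was -1.63 (edgeR adjusted p = 0.0544), and over all 6 fits that left out a library it ran from -1.63 to -0.40. Grin2b, for GluN2B, had 12.3, 6.43 and 3.81 CPM in KO brains, against 11.1, 9.19 and 9.69 CPM in WT brains, and the groups overlapped through KO replicate 1 (log2 fold change -0.41, edgeR adjusted p = 0.730). Leaving out a library gave -0.97 to -0.10 for Grin2b, the lowest without KO replicate 1 and the highest without KO replicate 3. Grin2d, a GluN2 subunit of interneurons and the young brain, had a log2 fold change of 0.16 and Grin3a, a subunit that lowers calcium entry, one of -0.00128, neither called. Grin3b, at 1.38 to 2.31 CPM, had a log2 fold change of 0.14 (SE 0.311, edgeR adjusted p = 0.914). It shares 32.1% of its exon bases with Tmem259 on the other strand, and what that overlap does to its counts was not tested.

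Among the kainate receptors, Grik5, for the high-affinity subunit GluK5, had 193.5, 214.9 and 230.7 CPM in KO brains, against 198.9, 229.2 and 220.3 CPM in WT brains. The ranges overlapped and the log2 fold change was -0.02 (edgeR adjusted p = 0.960). Grik1, Grik2, Grik3 and Grik4 ran from -0.18 for Grik3 to 0.16 for Grik2, none called. Of the delta receptors, which bind cerebellins at synapses, Grid1 had 41.4, 38.9 and 44.3 CPM in KO brains, against 45.7, 43.1 and 48.8 CPM in WT brains. KO replicate 3 lay within the WT range and the others below it, with a log2 fold change of -0.14 (edgeR adjusted p = 0.684).

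Group I metabotropic receptors couple to phospholipase C. Grm5, the main one of the forebrain, had 155.2, 163.4 and 125.3 CPM in KO brains, against 158.5, 169.0 and 170.2 CPM in WT brains. KO replicate 3 was the lowest library, and the log2 fold change was -0.16 (edgeR adjusted p = 0.660). Grm2, the group II partner of Grm3, had a log2 fold change of 0.05. Grm7 and Grm8, presynaptic group III receptors, had log2 fold changes of -0.10 and -0.09. Grm8 was the steadiest gene, with a coefficient of variation of 3.73% over the 6 libraries, at 19.1, 18.4 and 18.6 CPM in KO brains, against 20.1, 19.9 and 19.9 CPM in WT brains. Its groups did not overlap, and edgeR, which moderates the spread of each gene towards that of genes of like level, gave an adjusted p of 0.833.

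GABA-A channels need alpha and beta subunits. Gabra2, abundant early in life and in the forebrain, had 53.9, 47.5 and 39.4 CPM in KO brains, against 60.3, 60.1 and 53.2 CPM in WT brains. Only KO replicate 1 overlapped WT, and the log2 fold change was -0.30 (SE 0.121, 95% interval -0.57 to -0.03, edgeR adjusted p = 0.439). Gabra3, Gabra4 and Gabra5 had log2 fold changes of -0.13, -0.08 and -0.11. Gabrb1 and Gabrb2 had log2 fold changes of -0.15 and -0.11, neither called.

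Gabrd, for the delta subunit of channels outside synapses, had 36.7, 44.7 and 44.0 CPM in KO brains, against 37.2, 37.6 and 40.1 CPM in WT brains. KO replicates 2 and 3 were above every WT library and KO replicate 1 below them (log2 fold change 0.12, edgeR adjusted p = 0.755). Gabrg1 and Gabrg3 had log2 fold changes of 0.07 and -0.12. Of the 14 GABA receptor genes 12 had a negative log2 fold change, with a median of -0.12, and 15 of the 25 tested glutamate receptor genes did, with a median of -0.02. With exon-length offsets these were 11 of 14, with a median of -0.06, and 12 of 25, with a median of 0.04. With total-count scaling the glutamate median was 0.02 and that of all tested genes 0.05, and with upper-quartile scaling they were 0.00 and 0.04.

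As sums of CPM per kb over a family, GABA-A alpha came to 134.2, 135.4 and 125.1 in KO brains, against 138.0, 148.3 and 149.8 in WT brains. GABA-A beta came to 90.2, 84.0 and 75.7 in KO brains, against 94.5, 91.8 and 91.0 in WT brains. These were the only 2 of 12 family sums whose groups did not overlap, where 16% of single genes had separate ranges. Under total-count scaling the beta sums did overlap, at 90.6, 82.7 and 79.0 in KO brains and 95.03, 89.3 and 89.7 in WT brains. Beside these, the 6 markers of forebrain excitatory neurons summed to 4077.5, 4819.4 and 4374.8 CPM in KO brains and 3819.2, 5559.2 and 5411.9 CPM in WT brains, with 0 of 6 called in edgeR, and their part in the family sums was not tested.

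All libraries were of P14, so a switch of subunit use over time could not be measured. Subunit use at this age was described as shares of RNA levels within a family. With 3 libraries against 3, a 2-sided exact permutation test cannot go below p = 0.1. Grin2b made up 2.61, 1.41 and 0.924% of the summed CPM per kb of the 4 Grin2 genes in KO brains, against 2.75, 3.32 and 3.25% in WT brains. All KO shares were lower (exact permutation p = 0.1, adjusted over 8 measures 0.533), and both Grin2c and the low counts of Grin2b enter this share. The difference was -1.46 percentage points with exon lengths, -4.65 with coding lengths and -5.21 with no length. The log2 ratio of Grin2a to Grin2b was -1.39 ± 0.560 in KO and -0.98 ± 0.341 in WT (SD, n = 3 each, exact permutation p = 0.4). With exon lengths, Gria2 made up 21.2 ± 2.32% of AMPA subunit levels in KO and 23.5 ± 0.798% in WT (SD, n = 3 each, exact permutation p = 0.2). The size of this share depends on the lengths used. Gria2 was divided by 15.5 kb of exon and Gria1 by 6.04 kb, while their coding lengths are 2.80 and 2.84 kb. In CPM, Gria2 had the highest mean of the AMPA genes, 461.1 against 389.7 for Gria1. The KO minus WT difference was -2.27 percentage points with exon lengths, -2.93 with coding lengths and -2.94 with no length. Grm3 made up 47.7 ± 6.13% of the group II levels in KO and 55.4 ± 2.31% in WT (SD, n = 3 each, exact permutation p = 0.2). The other 4 measures had exact permutation p-values between 0.3 and 0.8.

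Subunits also differed with the cerebellar signal. In a fit with both terms, 2 of the 39 subunits, Grm4 among them, were higher in libraries with Gabra6 at an adjusted p under 0.05, where 0.729% of all genes passed in either direction. Grm4, the group III receptor on the parallel fibres of granule cells, had 110.4, 47.8 and 73.8 CPM in KO brains, against 108.6, 49.8 and 46.9 CPM in WT brains. KO replicates 1 and 3 and WT replicate 1 were high, the libraries in which Gabra6 was found. The log2 fold change for Gabra6 was 1.06 (SE 0.143, edgeR adjusted p = 0.00408), and that of KO over WT in the fit without this term was 0.18 (edgeR adjusted p = 0.90). Since the libraries were split by a marker measured in them, this is a description of how these libraries differ, and why they differ was not tested. The 5 Purkinje cell markers summed to 473.3, 144.1 and 314.1 CPM in KO brains and 428.9, 138.7 and 149.2 CPM in WT brains.

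**Figure D4:**
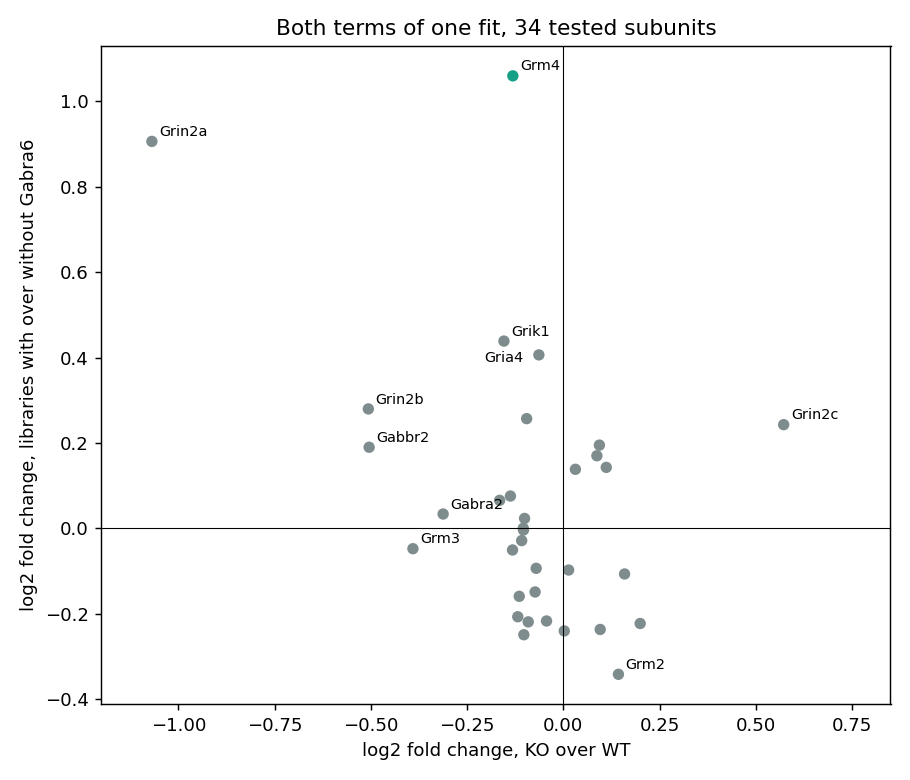
Log2 fold change of KO over WT (horizontal) against that of libraries with over without Gabra6 above 5 CPM (vertical), from one fit, for 34 of the 39 tested subunits; the green point passed for the Gabra6 term. Grm4 is highest on the vertical axis and left of 0 on the horizontal, and Grin2c lies farthest right at 0.57.

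Among the 3 libraries without Gabra6, 1 KO and 2 WT, the log2 fold change was -0.58 for Gabbr2, -0.49 for Grm3 and -1.48 for Grin2a. Among the 3 libraries with Gabra6, 2 KO and 1 WT, it was -0.44 for Gabbr2, -0.30 for Grm3 and -0.79 for Grin2a. These are values of single libraries against pairs, with no test.

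Genes that serve the receptors were examined as 4 further lists, whose counts are to be read beside the shares of all tested genes, 1.2% in edgeR, 1.89% with DESeq2, 3.41% with the block and 9.67% at an unadjusted p under 0.05. Of 28 genes listed as auxiliary subunits, such as the TARPs that carry AMPA receptors to the membrane, 0 passed in edgeR and in DESeq2. In edgeR 2 had an unadjusted p under 0.05, and the median log2 fold change was -0.06. The list also held genes for synaptic proteins that are not receptor subunits, such as Nptx1, Cbln4 and C1ql3. They enter these counts and the median. The TARP gene Cacng5 had 30.2, 33.4 and 30.2 CPM in KO brains, against 26.7, 21.7 and 23.3 CPM in WT brains (log2 fold change 0.39, edgeR adjusted p = 0.276). The TARP gene Cacng4 had 15.6, 11.97 and 15.8 CPM in KO brains, against 24.0, 16.2 and 19.0 CPM in WT brains (log2 fold change -0.45, edgeR adjusted p = 0.419). Both had groups that did not overlap, on opposite sides.

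Of 26 scaffold genes of the postsynaptic density and the inhibitory synapse, 0 passed in edgeR and in DESeq2, 7 had an unadjusted p under 0.05, against 9.67% of all genes, and 3 passed with the block, all lower, against 3.41% of all genes. The median was -0.15, with 20 of 26 negative, both without offsets for exon length. Dlg1, for the scaffold SAP97, had 100.2, 96.2 and 90.2 CPM in KO brains, against 116.0, 115.5 and 128.9 CPM in WT brains (log2 fold change -0.33, edgeR adjusted p = 0.160, and 0.0336 with the block). All KO libraries were below WT for Dlg1. With offsets for exon length, and no block, its log2 fold change was -0.24 (edgeR adjusted p = 0.319). Dlgap2, another scaffold of the density, had a log2 fold change of -0.45 (edgeR adjusted p = 0.297, and 0.0309 with the block) and was named after its value was seen. With offsets for exon length Dlgap2 had -0.42 (edgeR adjusted p = 0.325).

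Of 25 genes of transmitter synthesis, transport and chloride balance, 1 passed in edgeR, against 1.2% of all genes, 3 with DESeq2, against 1.89%, and 3 with the block, 2 higher and 1 lower, against 3.41%. The median was 0.00. Slc6a13, for the GABA transporter GAT2, rose to 15.7, 12.2 and 15.9 CPM in KO brains, against 7.68, 6.62 and 8.90 CPM in WT brains (log2 fold change 0.91, SE 0.173, edgeR adjusted p = 0.0300). The groups did not overlap, but Slc6a13 passed in only 1 of 6 fits that left out a library, the one without KO replicate 2, with edgeR adjusted p-values of 0.0332 to 0.175. GAT2 is known from the meninges, and the 5 markers of meningeal fibroblasts summed to 290.2, 223.7 and 197.3 CPM in KO brains and 110.3, 110.5 and 118.3 CPM in WT brains, with 4 of 5 higher in the test; their part in the Slc6a13 result was not tested. Slc12a2, for the chloride importer NKCC1, had 49.6, 48.9 and 33.6 CPM in KO brains, against 88.1, 67.9 and 65.6 CPM in WT brains. All KO libraries were below WT, with a log2 fold change of -0.75 (SE 0.160, edgeR adjusted p = 0.0568, 5.66e-05 with the block and 0.000537 with DESeq2). NKCC1 is also known from the oligodendrocyte lineage, whose markers are given above, and their part in its values was not tested. Slc38a3, for a glutamine transporter of astrocytes, passed with the block and DESeq2 and was named after its value was seen (log2 fold change 0.40, edgeR adjusted p = 0.0726, and 0.00573 with the block).

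The last list held receptor subunits that the rule on symbols leaves out, such as those for the GABA-A theta and rho subunits. It also held Grina and Grid2ip, which encode no receptor subunit. Of 8 such rows, 5 were tested, 0 passed in edgeR and in DESeq2, 1 had an unadjusted p under 0.05, and the median was 0.33. Gabrq, for theta, had 13.1, 9.77 and 10.8 CPM in KO brains, against 9.93, 7.43 and 7.16 CPM in WT brains (log2 fold change 0.46, edgeR adjusted p = 0.449). Grina, for a protein named after the NMDA receptor that is not a channel subunit, had a log2 fold change of 0.15 (edgeR adjusted p = 0.709). Grid2ip, also not a subunit, had one of 0.04 (edgeR adjusted p = 0.975), and both enter the median of this list. The ranges of Gabrq overlapped only through KO replicate 2 and WT replicate 1.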

How the data were processed

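RNA of P14 mouse brain was sequenced from Illumina mRNA TruSeq libraries as 150 bp paired ends, per the labels' protocols. The authors deposited raw counts per gene symbol over exons of UCSC known genes, per the file name. FastQC 0.11.2, Trimmomatic 0.32, STAR 2.3.0e, featureCounts 1.5.0, DESeq2 and build mm10 are named in the submitters' processing notes; strand and multimapping settings are not given in the sources used here. Genes were tested with edgeR 4.0.16 in R 4.3.3 (quasi-likelihood, TMM, filterByExpr, Benjamini-Hochberg over 16592 genes, limit 0.05), on all 6 libraries, KO over WT. DESeq2 1.42.0 and limma 3.58.1 gave alternatives. CPM used TMM library sizes. CPM per kb divided by exon unions of GENCODE M21, with coordinates on mm10. Promoters came from RefSeq (GRCm38.p6).

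The labels number the replicates 1 to 3 in each group without saying what a number shares. Same-numbered samples deviated together across genes, with correlations of 0.351, 0.334 and 0.177, so the numbers were treated as pairs in the block fit, from the data and not the design. Of the pairs with unlike numbers, KO replicate 2 with WT replicate 3 gave 0.100 and KO replicate 3 with WT replicate 1 gave 0.028. The others were negative. Since the block was taken from the same counts, its smaller p-values are not independent support for a call. The block fit left 2 residual degrees of freedom. Libraries were split by Gabra6 above 5 CPM, an alternative to the main fit. The scripts were tested on simulated data. The members and gene lists were chosen with earlier results of these data known. Named in full were subunits called, the 8 with the smallest p, the highest level in each family, and those called for the Gabra6 term, plus, for each further list, called genes and the 2 smallest p. Drd1 and Insyn1 were read under older symbols, and Shisa8 was not matched. A normalized table of the same samples was not used. Some subunits and 1 scaffold gene entered every fit and count but are not reported here by name.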

Additional observations from a re-analysis of the deposited data

How the results depend on the processing

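The number of genes called was 199 in the main fit, 314 with DESeq2, 566 with the replicate block, 535 with block and Gabra6 term, 129 with an Xist term, 463 with block and exon-length offsets, and 100 to 305 when a library was left out. The number of subunits called was 0 in the main fit, 1 without the filter on low counts, 1 with DESeq2, 3 with the block, 2 with block and Gabra6 term, 3 with block and length offsets, and 0 to 1 when a library was left out. The block changed no call of a subunit other than those of Grin2c, Grm3 and Gabbr2. The median log2 fold change of the subunits was -0.10 in the main fit, -0.0221 with length offsets and -0.0202 with length offsets and block. The KO minus WT difference in the Grin2b share was -1.46 percentage points with exon length, -4.65 with coding length and -5.21 with no length. Signs of uncalled subunits turned by more than 1 SE in the libraries with Gabra6 (Gabra4 0.0367, Gabrg1 -0.0537, Gria4 -0.14, Grik5 0.0877, Grin1 0.0303, Grm4 -0.24, Grm7 0.0598), in those without (Gabra5 0.00702, Gria2 0.0319) and with block and Gabra6 term (Gabrb1 0.0495). Leaving out each library gave log2 fold changes of -0.0881 to 0.0748 for Gria1, -0.12 to 0.24 for Gria4, -0.15 to 0.17 for Grm2, -0.17 to 0.68 for Grm4. The causes were not tested. Of 858 subunit values under alternatives 72 changed sign, 17 of them by more than 1 SE. The comparisons within libraries with and without Gabra6, which have 1 library in a group and give values with no test, the interaction and the coding lengths were added after seeing the data. With 3 libraries a group, Grin2a, Grin2b and Grin3b were limited by low counts.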
